A study of Mus musculus with 10 samples.

Results

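The comparison described here is the change in H3K4me2 around gene transcription start sites (TSS) of the mouse retina between postnatal day 1 (PN1) and postnatal day 7 (PN7). It covers all 20045 gene symbols of the deposited enrichment table, which were collected from its 25152 entries. A symbol with several entries (3224 symbols) took the values of the entry whose 8 libraries summed highest. For each symbol the change was log2(occupancy at PN7 + 1) minus log2(occupancy at PN1 + 1), less the median of this difference over all symbols, and it is called the centred log2 change below.

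H3K4me2 is a methylation mark of histone H3 that is found at active promoters, at promoters poised for later use and at enhancers. In mammals it covers most promoters rich in the CpG dinucleotide, whether the gene is strongly transcribed or not, and at tissue-restricted promoters poor in CpG it usually appears when the gene is switched on. H3K27me3 is deposited by Polycomb complexes over repressed developmental genes, where both marks can share a promoter. In the mouse retina the first postnatal week is the time when the last rods, bipolar cells and Müller glia are born and when photoreceptors begin to form outer segments and ribbon synapses.

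Chromatin from whole retinas at E17.5, PN1, PN7 and PN15 was immunoprecipitated with antibodies to H3K4me2 or H3K27me3 and sequenced (ChIP-Seq), with 1 library for each mark and stage. At least 20 retinas were pooled for a stage. The mice were wild-type C57BL/6j by the study's methods, whereas the sample labels name the Pde6b (rd1/rd1) strain for every library, and each antibody label carries both of the catalogue numbers that the methods divide between the 2 antibodies. An H3K4me2 library of rd1/rd1 retinas at PN30 and an anti-GFP control were not analysed here. With 1 library on each side no difference between PN1 and PN7 has a replicate to be set against, so no test is given, and a symbol was called higher or lower when its centred log2 change was at least 1 or at most -1, a 2-fold difference from the median symbol. The retina was taken whole, and fewer cells of a type and less of the mark per cell cannot be told apart. The read totals are not in the table, so the depth behind a value is unknown.

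The values are normalized occupancies, whole numbers over windows of 5 kb that were equal for all genes, so that levels can be compared between genes. The median symbol had H3K4me2 occupancies of 41, 27, 24 and 42 in the order E17.5, PN1, PN7, PN15. The PN7 library stood apart from the other 3 in its zeros. It listed 4022 symbols (20.1%) at 0, against 86 at PN1, 84 at E17.5 and 557 at PN15. The highest values of the 4 libraries were 283, 195, 285 and 278, so that the PN1 library had the lowest maximum. The H3K27me3 libraries listed 28 symbols at 0 at PN1 and 481 at PN7, and their median symbols were at 10 and 9. Markers of cells outside the neural retina had list medians below the median symbol at both stages. The 11 microglial markers had H3K4me2 occupancies of 1 to 12 at PN1 and 1 to 5 at PN7, with Cx3cr1 at 3 and 1. The 8 erythroid, 12 pigment epithelium and 13 lens markers had medians of 6, 8 and 8 at PN1 and of 0, 1.5 and 2 at PN7. Rpe65, which defines the pigment epithelium, was at 5 and 0. The 11 endothelial markers had medians of 11 and 8. Single members of these lists were higher, with Kdr, an endothelial growth factor receptor, at 84 and 55, the pigment cell genes Mitf at 31 and 49 and Si at 33 and 44, and the erythroid factor Klf1 at 21 and 44. The part of such cells in the changes was not tested.

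From PN1 to PN7 the spread of H3K4me2 between genes widened at both ends. The median uncentred log2 change was -0.50, and all changes below are relative to it. Of the 20045 symbols, 2745 (13.7%) were higher at PN7, 5333 (26.6%) were lower and 11967 were neither. The centred log2 change ran from -5.38 to 2.79, with quartiles of -1.08 and 0.64. Just inside and outside the thresholds the changes were 1.0 and 0.99923 for higher symbols and -1.0021 and -0.99707 for lower ones.

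The lower symbols lay at the bottom of the range of occupancy at every stage, with medians of 3, 6, 0 and 3. The higher symbols had medians of 52, 32, 59 and 63, and those called neither 53, 37, 30 and 60. At E17.5 and PN15, which the calls do not use, these 2 classes were close. The lower PN1 and higher PN7 medians of the higher class follow in part from the call itself. Of the higher symbols, 2168 (79.0%) had an occupancy of 40 or more at PN7 and 105 had less than 10 at PN1. Of the lower symbols, 4487 (84.1%) had less than 10 at PN1 and 3669 (68.8%) were at 0 at PN7. There were 192 lower symbols with 40 or more at PN1. Most of the lower calls were thus steps of a few units near the bottom of the scale. The split between higher and lower calls depended on how such low values were treated. It was 1840 to 727 with a pseudocount of 5, 1033 to 292 with a pseudocount of 10, 950 to 1051 among the 12577 symbols with at least 20 in 1 of the 2 libraries, 814 to 7379 without centring, 1465 to 1516 after quantile normalization and 1987 to 1996 when each symbol was centred on symbols of like level. After quantile normalization 980 of the higher and 978 of the lower symbols had the same call before. With like level these were 996 and 1356.

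**Figure D1:**
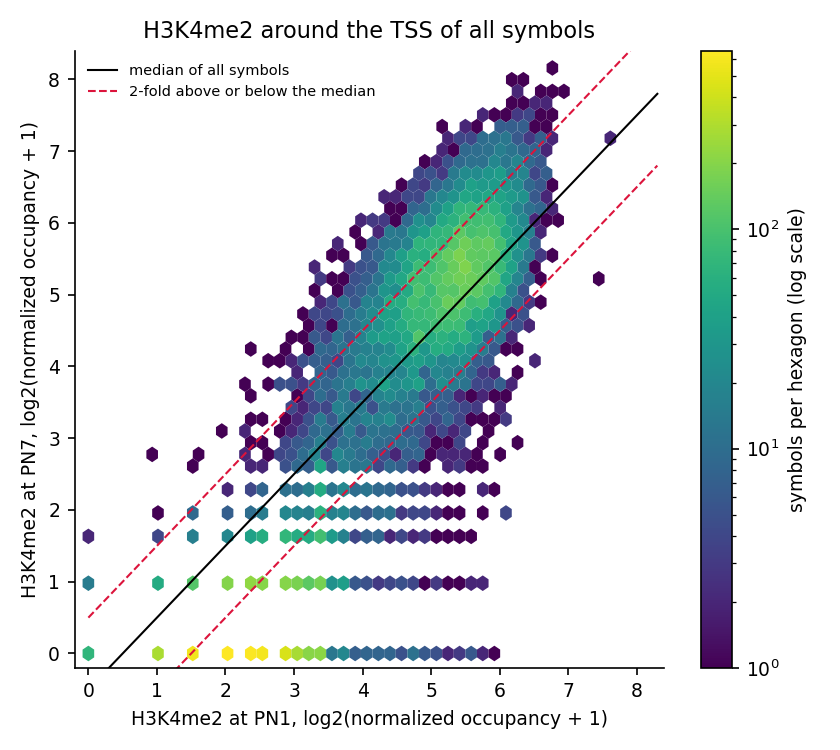
H3K4me2 at PN1 (x axis) and PN7 (y axis) for the 20045 symbols, both as log2(normalized occupancy + 1), with the number of symbols per hexagon on a log colour scale. The black line is the median change of all symbols and the dashed lines lie 2-fold above and below it. The cloud rises more steeply than the black line, and the 4022 symbols at 0 at PN7 form the bottom row.

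The level of a gene was also taken from the E17.5 and PN15 libraries, which the comparison does not use, as the mean of their log2(occupancy + 1). In each of the 3 classes of symbols with a level under 3, the median centred log2 change was -1.50, and 51.7% to 90.3% of symbols were at 0 at PN7 against 0.598% to 3.56% at PN1. At a level of 3 to 4 the median was -0.69, and 40 of 1111 symbols were higher. Above a level of 4 the sign turned, with medians of 0.34 at 4 to 5, 0.50 at 5 to 6, 0.37 at 6 to 7 and 0.72 at 7 to 8, except for the 2 symbols above 8 (-0.02). These signs are relative to the median of all symbols. The median occupancy itself went from 32 to 32 at a level of 5 to 6, from 50 to 45 at 6 to 7 and from 80 to 94 at 7 to 8. The 11518 symbols with a level of 5 or more are called marked below.

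The 15 symbols with the largest change among those with at least 40 at PN7 had centred log2 changes of 2.41 to 2.79. This choice favours a low PN1 and a high PN7 value. Phf15, which encodes a PHD finger protein (mm9, chr11:51626957-51671155, minus strand), had the largest, with H3K4me2 occupancies of 86, 33, 165 and 123 in the order of the 4 stages. Hcn2, a hyperpolarization-activated cation channel, read 32, 12, 51 and 51. Cacna1b, the pore of the N-type calcium channel, read 49, 23, 89 and 65, and Grik4, a kainate receptor subunit, read 36, 20, 79 and 37. In each of these 4 genes the PN1 value was the lowest of the 4 stages, and at Phf15, Cacna1b and Grik4 the PN7 value was the highest.

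E2f3, a transcription factor of the cell cycle, had 65, 44, 169 and 168. Nsd1, a histone methyltransferase, had 24, 12, 50 and 31, and Plxna1, a semaphorin co-receptor, had 40, 19, 77 and 55. All 3 were at their lowest at PN1 and at their highest at PN7, which the choice of genes favours. Others were Vstm2l, Fa2h (a fatty acid hydroxylase), Osbpl5 (a lipid transfer protein), 6330512M04Rik, Rai2 and Tsc22d3 (a glucocorticoid-induced leucine zipper protein), whose occupancies rose from 9 to 17 at PN1 to 42 to 67 at PN7. Over E17.5 to PN15, which shares no library with this comparison, the change was -0.09 for Grik4, 0.38 for Phf15, 0.52 for Hcn2 and 1.22 for E2f3.

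The 5 highest symbols at PN7 were chosen on a library that the change uses, a choice that favours a gain. Pcdh10, a protocadherin, went from 108 at PN1 to 285 at PN7, with 156 at E17.5 and 269 at PN15. Efna5, an ephrin ligand of axon guidance, went from 82 to 243, Smarca2, an ATPase of chromatin remodelling, from 73 to 243, Bcl11a, a zinc finger repressor, from 112 to 237, and Junb, an AP-1 subunit, from 76 to 220. Their centred log2 changes were 1.58 to 2.22. The highest symbols at PN1 were Hjurp, a histone chaperone of centromeres, and A730008H23Rik, which had nearly the same values in all 8 libraries. Hjurp went from 195 to 135, with a change of -0.03. Of the next 3, Sfi1 fell from 168 to 36 (change -1.69), Tgif1, a homeobox repressor, gained from 121 to 214 (1.32) and Gpbp1l1 went from 118 to 62 (-0.42, not called).

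The promoters of 3 gainers are shown as examples with many CpG, of which the higher class had more than all symbols did. Each is the 250 bases before the start in RefSeq (GRCm38.p6), 5' to 3' on the strand of the gene, with every CG in capitals. Each stretch was found unchanged in the mm9 window of its gene.
Hcn2, chr10:79716384-79716633, plus strand: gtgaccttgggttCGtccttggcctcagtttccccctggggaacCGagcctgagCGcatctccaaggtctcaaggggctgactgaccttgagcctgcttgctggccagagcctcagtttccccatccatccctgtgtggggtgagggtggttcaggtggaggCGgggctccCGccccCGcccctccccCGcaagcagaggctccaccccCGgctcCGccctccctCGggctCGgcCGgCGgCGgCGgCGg
Cacna1b, chr2:24763153-24763402, minus strand: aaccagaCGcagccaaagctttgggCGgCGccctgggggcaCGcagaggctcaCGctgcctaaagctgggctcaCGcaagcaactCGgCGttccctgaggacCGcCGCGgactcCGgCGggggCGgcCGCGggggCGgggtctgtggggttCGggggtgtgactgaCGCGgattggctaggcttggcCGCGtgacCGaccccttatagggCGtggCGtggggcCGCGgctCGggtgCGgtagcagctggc
Efna5, chr17:62881318-62881567, minus strand: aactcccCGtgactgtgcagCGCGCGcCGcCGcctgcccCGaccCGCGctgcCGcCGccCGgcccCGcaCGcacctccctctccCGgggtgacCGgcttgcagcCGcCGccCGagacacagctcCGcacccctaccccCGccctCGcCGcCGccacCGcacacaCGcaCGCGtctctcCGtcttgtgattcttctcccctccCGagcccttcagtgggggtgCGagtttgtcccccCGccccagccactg
They hold 16, 29 and 32 CG and have a GC content of 70.4%, 72.0% and 74.8%.

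Over 19467 symbols with an mm9 promoter of this length, the median number of CG was 17 in the higher class, 13 in the class called neither and 2 in the lower class. The letters GGGCGG on either strand, which form a GC box, occurred in 64.1% of higher promoters, 51.7% of the neither class and 11.3% of lower promoters, against 42.9% of all. Among marked symbols the contrast was smaller, with medians of 17 CG in the higher and 16 in the neither class. The windows of 5 kb had a median GC content of 52.8% in the higher class, 48.1% in the neither class and 42.9% in the lower class.

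GC content moved with the change in H3K4me2. Among the 11281 marked symbols with an annotated window, the median centred log2 change was -0.31 at a GC content of 38 to 42%, -0.04 at 42 to 46%, 0.29 at 46 to 50%, 0.72 at 50 to 54%, 1.03 at 54 to 58%, 1.45 at 58 to 62% and 1.57 above 62%. The 27 symbols below 38% had a median of -0.01. The share called higher went from 4.16% to 3.88%, 10.6%, 30.6%, 53.4% and 83.8% over these classes, and above 62% it was 25 of 25 symbols. PN1 occupancy was nearly flat over the same classes, with medians of 37 to 44, while the PN7 medians went from 21 to 99. The change from E17.5 to PN15 did not follow GC content, with medians of 0.09 to 0.19 over these 7 classes. The median change of H3K27me3 from PN1 to PN7 fell slightly with GC content. It was 0.16 at 38 to 42%, -0.10 at 58 to 62% and -0.03 above 62%. Across these genes, which are not independent replicates, the Spearman rank correlation with GC content was 0.60 for the H3K4me2 change, 0.01 for the change from E17.5 to PN15 and -0.07 for that of H3K27me3. With each symbol centred on symbols of like level and like GC content, and repeated windows left out, 1355 of 18330 symbols were higher and 1134 lower, and 514 of the 1355 had been called higher before.

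**Figure D2:**
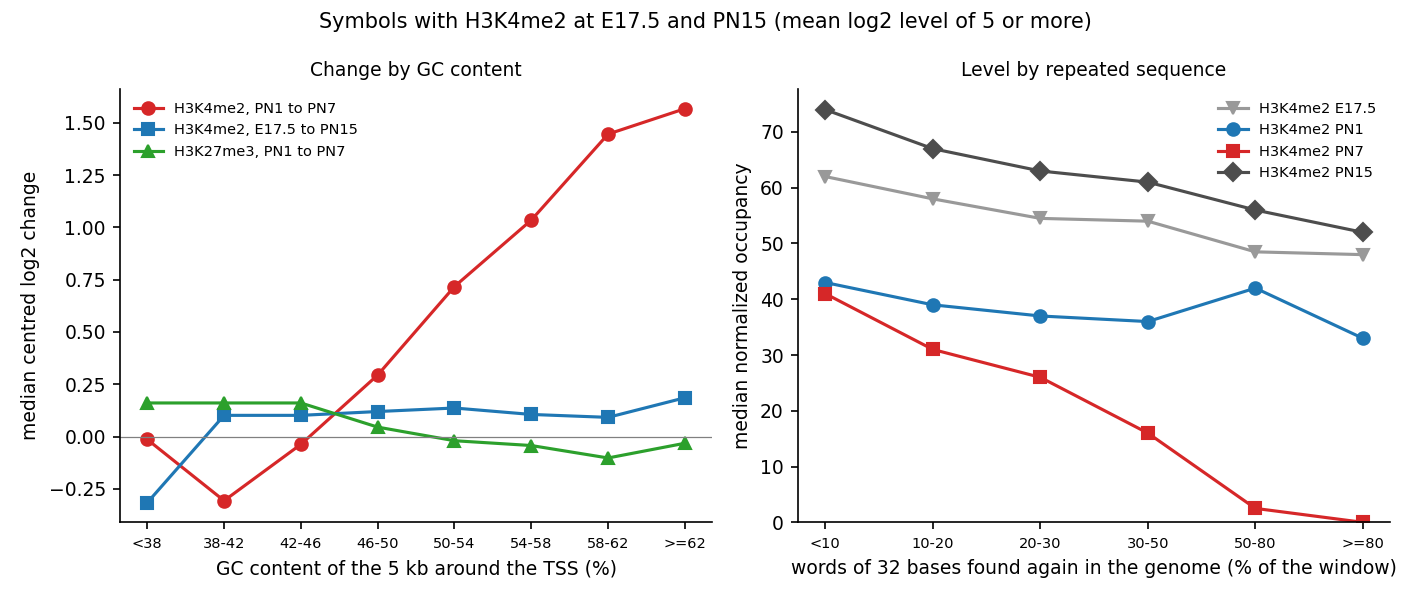
Left, median centred log2 change of marked symbols by GC content of the 5 kb window (x axis, %), for H3K4me2 from PN1 to PN7 (red), H3K4me2 from E17.5 to PN15 (blue) and H3K27me3 from PN1 to PN7 (green). Right, median H3K4me2 occupancy in each library by the share of the window made of 32-base words found again in the genome (x axis, %), where only the PN7 line falls to 0. The red line on the left lies at -0.01 in the lowest class, which holds 27 symbols, and climbs from -0.31 in the next to 1.57 in the highest, over which the other 2 stay between -0.10 and 0.19.

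Of the 192 lower symbols with at least 40 at PN1, 41 had windows with at least 30% repeated words, 141 had less and 10 had no annotated window. Of the 141, 134 had a GC content below 48.9%, the median of the 6431 symbols with at least 40 at PN1 and a window, and 7 did not. The 15 symbols with the most negative change among those with at least 40 at PN1 had changes of -4.08 to -5.38 and occupancies of 0 or 1 at PN7. Mthfs, an enzyme of folate metabolism (mm9, chr9:89094217-89135064, plus strand), read 49, 49, 0 and 65 over the 4 stages. Fgfr1op, a centrosomal protein, read 78, 42, 0 and 90, Gon4l, a nuclear regulator of transcription, read 61, 40, 0 and 70, and Srp54b, a signal recognition particle protein, read 78, 45, 0 and 135. Syt11, a synaptotagmin, read 78, 47, 1 and 63. In all 5 the occupancy was 40 or more at the 3 other stages, and only the PN7 value was at or near 0.

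H3K27me3 was missing from the same windows at PN7. All 15 had an H3K27me3 occupancy of 0 or 1 at PN7. For the 14 with an annotated window, at least 51.5% of the 32-base words in it occurred more than once in the genome. Further members were Gm4455, which had no annotated window, Gm3435, 2210404J11Rik, Gm3417, Gm3448, Tcte3, Gm2382, Tagap1 and Srp54c, and 5 of them lay side by side on chromosome 17 between 15101153 and 15201196, with values that were equal or nearly so. The study left out reads that map to several positions, and the part of this step in these zeros was not tested.

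The same held for repeated windows in general. Among marked symbols with under 10% repeated words the median H3K4me2 occupancy was 43 at PN1 and 41 at PN7. With 30 to 50% it was 36 and 16, with 50 to 80% (26 symbols) 42 and 2.5, and with 80% or more (40 symbols) 33 and 0. In the last class 60.0% of symbols were at 0 at PN7 and 85.0% were lower, while the medians at E17.5 and PN15 were 48 and 52. H3K27me3 at PN7 was at 0 in 72.5% of that class. Of all annotated windows, 1141 had at least 30% repeated words. Without them, and without the symbols that had no window, 2319 symbols were higher and 4264 lower of 18330.

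Outside repeated windows the losses were smaller, and they stood mostly at genes of low GC content. The 15 largest with under 10% repeated words, which were chosen after their values were seen, had changes of -1.70 to -2.80. Fam19a1, a secreted chemokine-like protein of the brain, had the largest, with occupancies of 110, 78, 7 and 28 at the 4 stages. Celf2, an RNA-binding regulator of splicing, had 89, 68, 8 and 36, Cp, which encodes the copper carrier ceruloplasmin, had 70, 55, 5 and 16, and Crb1, an apical polarity protein of photoreceptors and Müller glia that is mutated in retinal dystrophy, had 88, 66, 11 and 25. These 4 had lower values at PN7 than at PN1 and also at PN15 than at E17.5, with changes from E17.5 to PN15 of -2.07, -1.42, -2.20 and -1.91.

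Others regained it. Scn1a, a voltage-gated sodium channel, read 32, 43, 5 and 28, Csrnp3, a nuclear protein, 58, 46, 5 and 37, and Map2k6, a kinase of stress signalling, 93, 65, 12 and 69. Sorbs2, an adaptor of the actin cytoskeleton, read 79, 55, 9 and 94, Ppp6c, a phosphatase catalytic subunit, 57, 45, 9 and 99, and Med24, a Mediator subunit, 46, 40, 7 and 60, so that all 3 were higher at PN15 than at E17.5. Tnfaip6, a hyaluronan-binding protein, went from 64 to 13 and Ghrh, the growth hormone releasing hormone, from 43 to 7, and both stayed low at PN15, at 14 and 10. The last members were A730017C20Rik and the histone genes Hist1h4k and Hist1h4d. The GC content of the 15 windows was 37.1% to 48.6%, and H3K27me3 at PN7 was between 3 and 23. Marked symbols with a GC content of 38 to 42% had median H3K4me2 occupancies of 55, 37, 21 and 64 over the 4 stages. The part of this low PN7 level in the values of the 15 genes was not tested.

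The promoters of 3 of these genes are shown for comparison with the gainers, in the same form.
Fam19a1 (Tafa1 in RefSeq), chr6:96112904-96113153, plus strand: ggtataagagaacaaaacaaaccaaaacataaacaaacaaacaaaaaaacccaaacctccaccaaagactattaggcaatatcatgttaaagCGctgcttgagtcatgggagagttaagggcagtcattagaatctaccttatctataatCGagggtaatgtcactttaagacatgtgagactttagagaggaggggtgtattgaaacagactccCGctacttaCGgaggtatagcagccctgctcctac
Scn1a, chr2:66440838-66441087, minus strand: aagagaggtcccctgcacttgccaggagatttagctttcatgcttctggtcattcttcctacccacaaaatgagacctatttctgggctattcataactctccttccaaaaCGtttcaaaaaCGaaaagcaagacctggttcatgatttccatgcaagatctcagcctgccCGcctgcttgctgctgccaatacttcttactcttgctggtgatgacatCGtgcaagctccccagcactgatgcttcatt
Crb1, chr1:139377077-139377326, minus strand: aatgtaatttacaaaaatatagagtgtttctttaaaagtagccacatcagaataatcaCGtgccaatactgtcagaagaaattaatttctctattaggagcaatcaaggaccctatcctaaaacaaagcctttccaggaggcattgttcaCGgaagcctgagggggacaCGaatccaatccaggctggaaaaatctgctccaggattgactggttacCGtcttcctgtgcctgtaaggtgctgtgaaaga
Each holds 4 CG, and their GC content is 40.8%, 46.8% and 41.6%.

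Replication-dependent histone genes were low at PN7 as a family. These genes are transcribed in S phase, lie in clusters, and share much of their coding sequence. Of 64 measured, 63 had a lower occupancy at PN7 than at PN1, 43 were called lower (67.2%, against 26.6% of all symbols) and 0 were called higher. Their median occupancy read 82.5, 62, 12.5 and 104.5 over the 4 stages, and their median centred log2 change was -1.31. H3K27me3 was low in most of them, with medians of 5, 7, 5 and 8.5.

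The lower calls stood mostly at core histone genes. Of the H2A genes 14 of 17 were lower (median -1.60), of H3 10 of 12 (-1.60), of H2B 12 of 17 (-1.25) and of H4 6 of 12 (-1.01). Of the 6 linker histone genes 1 was lower, the testis variant Hist1h1t, and the median was 0.10. Hist1h1c went from 54 to 69, the only member of the list with more at PN7. The lowest were Hist1h2ao (75, 68, 3 and 111 at the 4 stages) and Hist1h4m (62, 57, 4 and 107), whose windows were 98.6% and 97.2% repeated words.

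Repeated sequence moved with this loss, and lower calls were also found where there was little of it. Of the 9 histone genes with at least 30% repeated words all 9 were lower (median -2.18), of the 34 with 10 to 30% 26 were lower (-1.31), and of the 20 with under 10% 8 were lower (-0.79). Among these 20 Hist1h4k read 92, 45, 6 and 66 and Hist1h4d read 47, 41, 6 and 66. In marked windows with under 10% repeated words and a GC content of 40 to 48%, 4 of 15 histone genes were lower (median -0.48) against 101 of 3864 other symbols (0.09). With like level and like GC content as the reference, 29 of 54 were lower and the median was -1.03. Windows of neighbouring histone genes overlap, so the members are not independent of each other.

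The histone promoters differ from the gainers in sequence. Of 63 with an mm9 promoter, 53 held CCAAT and 32 held TATAAA on either strand, shares of 84.1% and 50.8%. The shares were 30.6% and 5.72% in the higher class and 35.4% and 11.8% of all promoters. Hist1h4d is shown with these 2 motifs in capitals.
Hist1h4d (H4c4 in RefSeq), chr13:23581318-23581567, plus strand: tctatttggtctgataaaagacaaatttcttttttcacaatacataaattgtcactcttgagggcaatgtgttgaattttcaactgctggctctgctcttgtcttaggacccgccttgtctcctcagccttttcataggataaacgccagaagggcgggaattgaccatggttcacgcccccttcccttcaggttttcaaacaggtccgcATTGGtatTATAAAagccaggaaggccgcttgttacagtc

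The genes of photoreceptors are set against the 13.7% higher and 26.6% lower of all symbols. Of 19 genes of rod phototransduction measured, 6 were higher and 2 lower, and the median centred log2 change was 0.69. Their median occupancy read 10, 10, 13 and 85 over the 4 stages, and 14 of 19 had more at PN7 than at PN1, while 19 of 19 had more at PN15 than at PN7. Of all symbols, 29.8% had more at PN7 than at PN1 and 82.9% more at PN15 than at PN7. Grk1, a kinase that ends the light response, read 11, 9, 25 and 65. Cnga1, a subunit of the rod cyclic nucleotide-gated channel, read 6, 6, 13 and 126, and Rgs9bp, which anchors the GTPase accelerator of the cascade, read 100, 67, 135 and 174. Gucy2e and Guca1b, a guanylate cyclase and an activator of cyclases, were also higher.

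Core parts of the rod cascade stood near their PN1 level at PN7. Gnat1, the rod transducin, read 11, 8, 8 and 105, Pde6a, a catalytic subunit of the phosphodiesterase, 6, 6, 7 and 118, Pde6b, the other catalytic subunit, 10, 20, 21 and 95, and Rcvrn (recoverin) 1, 9, 10 and 134. Gngt1, the transducin gamma subunit, was lower at 9, 12, 3 and 78, and so was Gucy2f, the other photoreceptor cyclase, at 8, 8, 2 and 63. The steps of most of these genes between PN1 and PN7 were of a few units, against steps of 40 or more from PN7 to PN15 in every gene named in this paragraph. With like level and GC content as the reference the median of the list was 0.30, with 3 genes higher and 1 lower, with like level alone it was 0.28, with 3 higher and 4 lower, and without centring it was 0.19, with 4 and 4.

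Genes of the outer segment and of photoreceptor structure followed with 9 higher and 1 lower of 22, and a median of 0.93. The median was 0.44 with symbols of like level as the reference and 0.26 with like level and GC content, and 3 genes were higher under each. Rp1l1, an axonemal protein of the outer segment, read 17, 9, 37 and 94. Tulp1, which takes part in transport to the outer segment, read 22, 20, 52 and 81, Rbp3, the retinoid-binding protein between photoreceptors and pigment epithelium, 17, 28, 53 and 127, and Cdhr1, a cadherin of the outer segment base, 21, 18, 39 and 138. Prph2 and Rom1, the tetraspanins of the disc rim, went from 10 to 15 and from 51 to 73. Impg2, a proteoglycan of the matrix between photoreceptors, was lower at 14, 13, 2 and 44, and 46.3% of its window was repeated. At Tulp1 the rise in H3K4me2 went with a fall in H3K27me3 from 340 to 106, and at Rtbdn, a retinal riboflavin-binding protein that was also higher (35 to 56), from 285 to 98.

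Transcription regulators of photoreceptors had a median H3K4me2 occupancy of 46 at PN1 and 38 at PN7. Of 13, 5 were higher and 0 lower, with a median of 0.50. Nr2e3, which represses cone genes in rods, read 11, 15, 38 and 107, Casz1, a zinc finger factor of late progenitors and rods, 102, 46, 120 and 118, Thrb, the thyroid hormone receptor of cones, 97, 57, 102 and 136, and Mef2d, a cofactor of Crx at photoreceptor genes, 90, 62, 98 and 271. Crx and Nrl, the homeodomain and leucine zipper factors of photoreceptor and rod fate, were not called, with 24 and 21 for Crx and 26 and 24 for Nrl at PN1 and PN7 before 158 and 116 at PN15. Otx2, upstream of both, went from 58 to 33 (change -0.29). The median was 0.01 with symbols of like level as the reference and 0.21 with like level and GC content.

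At the photoreceptor ribbon synapse, 7 of 18 genes were higher and 0 lower, and the median was 0.75, with medians of 35 at PN1 and 50.5 at PN7. Ctbp2, whose gene also encodes the ribbon protein RIBEYE, read 82, 46, 154 and 96. Slc17a7, the vesicular glutamate transporter of photoreceptors, read 39, 29, 58 and 126, with H3K27me3 at 271 and 105 at PN1 and PN7, and Rims1, an active zone protein, read 51, 27, 48 and 61. Cacna1f, the pore of the photoreceptor calcium channel, was not called (19 and 10), whereas its accessory subunit Cacna2d4 was higher (26 and 39). The median was 0.22 with symbols of like level and 0.44 with like level and GC content as the reference, where 2 genes were higher and 1 lower.

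Cone genes gave shares of calls close to those of all symbols. Of 11, 2 were higher, 4 lower (36.4%, against 26.6% of all symbols) and 5 neither. The median of -0.76 was -0.15 with symbols of like level as the reference and 0.00 after quantile normalization. A median of 1.39 came from the 2 genes that had at least 20 in 1 of the 2 libraries. Of these, Kcnv2 passed only through its PN7 value, which the change uses, so this filter favours a gain. Opn1sw and Opn1mw, the cone opsins, read 11, 9, 2 and 2 and 2, 3, 0 and 1, Pde6h, the inhibitory subunit of the cone phosphodiesterase, read 12, 13, 1 and 9, and Arr3, cone arrestin, read 2, 4, 0 and 7. All 4 were at or under 13 at every stage. The 2 higher genes were Kcnv2, a modulatory potassium channel subunit of rods and cones that read 10, 9, 37 and 77, and Gnb3, a transducin beta subunit of cones and ON bipolar cells that read 25, 26, 43 and 69.

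The promoters of 3 genes of these lists are shown because they hold TAATCC or its complement GGATTA, the letters bound by Crx and Otx2, in the 250 bases before the start. The motif occurred in 10 of 19 promoters of rod phototransduction (52.6%), 7 of 22 of outer segment genes (31.8%) and 4 of 11 of cone genes (36.4%), against 6.37% of all promoters, 4.76% of the higher class and 8.42% of the lower class. Cnga1 and Rbp3 were higher and Gngt1 was lower. The motif is in capitals.
Cnga1, chr5:72642753-72643002, minus strand: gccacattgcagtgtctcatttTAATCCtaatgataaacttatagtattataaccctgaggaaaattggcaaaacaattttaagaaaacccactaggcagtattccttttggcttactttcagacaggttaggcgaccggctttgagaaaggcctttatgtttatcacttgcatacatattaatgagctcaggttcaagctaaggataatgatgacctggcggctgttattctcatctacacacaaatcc
Rbp3, chr14:33953753-33954002, plus strand: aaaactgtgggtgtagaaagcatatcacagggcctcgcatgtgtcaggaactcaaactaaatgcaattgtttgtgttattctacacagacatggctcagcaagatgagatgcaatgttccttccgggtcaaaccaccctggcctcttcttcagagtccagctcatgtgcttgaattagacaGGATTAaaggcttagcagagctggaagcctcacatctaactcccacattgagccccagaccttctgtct
Gngt1, chr6:3993758-3994007, plus strand: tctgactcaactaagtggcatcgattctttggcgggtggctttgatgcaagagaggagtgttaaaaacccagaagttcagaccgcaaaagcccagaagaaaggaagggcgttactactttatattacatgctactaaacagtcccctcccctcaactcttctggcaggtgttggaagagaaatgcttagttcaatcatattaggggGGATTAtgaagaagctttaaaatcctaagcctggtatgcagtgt
A match of letters is a description of the sequence and was not tested as a binding site.

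**Figure D3:**
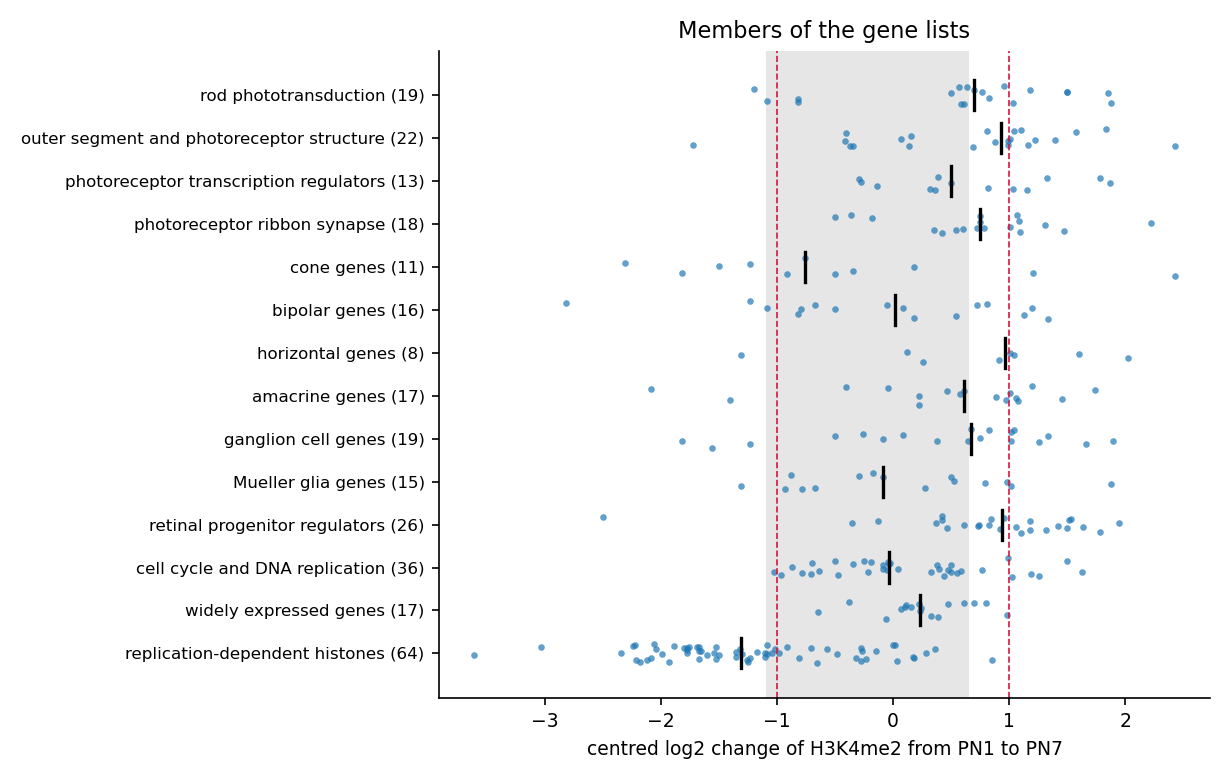
Centred log2 change of H3K4me2 from PN1 to PN7 (x axis) for the members of 14 gene lists, with the number measured in parentheses. Each point is a gene, the black bar is the median of the list, the grey band spans the quartiles of all symbols (-1.08 to 0.64) and the dashed lines mark the calls. The bar of the replication-dependent histones lies at -1.31 and that of the cone genes at -0.76, and those of the other lists lie between -0.08 and 0.96.

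The lists of horizontal, amacrine and ganglion cells had positive medians, and their promoters carried H3K27me3. Their counts stand against 13.7% higher and 26.6% lower of all symbols. Of 8 horizontal cell genes, 4 were higher and 1 lower (median 0.96, which was 0.048 after quantile normalization). Sall3, a zinc finger factor, read 55, 29, 85 and 59, Onecut1 and Onecut2, homeodomain factors of horizontal cell fate, read 71, 52, 113 and 42 and 109, 83, 121 and 67, and Prox1, a homeobox factor, 131, 87, 124 and 82. Gja10, a connexin, was lower (6 and 1). Of 17 amacrine genes, 6 were higher and 2 lower (median 0.61), with Chat, the acetylcholine synthesis enzyme of starburst cells, at 29, 16, 32 and 13. The median H3K27me3 of these lists was 328.5 and 385 at PN1 against 10 for all symbols, and the median GC content of their windows was 54.6% and 53.4%. The horizontal median was 0.30 once like level and GC content served as the reference, with 1 of 8 genes higher, and the amacrine median -0.24, with 1 of 16 higher.

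Of 19 ganglion cell genes, 7 were higher and 3 lower (median 0.67). Pou4f1, a POU factor of ganglion cells, read 43, 25, 57 and 32, and Nefh, the heavy neurofilament, read 26, 26, 70 and 80, with H3K27me3 falling at Nefh from 475 to 262. Elavl4, a neuronal RNA-binding protein, was lower at 40, 24, 5 and 17, and so was Slc17a6, the vesicular glutamate transporter of ganglion cells, at 11, 9, 2 and 5. With like level and GC content as the reference the median was 0.00 and 0 genes were higher. In the ganglion, amacrine and horizontal lists the median from E17.5 to PN15 was -1.13, -1.13 and -0.81. On the centred scale these signs are the opposite of those from PN1 to PN7, which for the amacrine and ganglion lists did not hold with like level and GC content as the reference.

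Bipolar cells and Müller glia, both born in this interval, showed no common direction. Of all symbols, 13.7% were higher and 26.6% lower. Of 16 bipolar genes, 3 were higher and 3 lower (18.8% each, with a median of 0.01, which was -0.49 without centring). Prkca, the protein kinase C of rod bipolar cells, read 63, 47, 77 and 154 and Lhx4, a homeodomain factor, 74, 69, 107 and 42, whereas Cabp5, a calcium-binding protein, read 6, 9, 0 and 6 and Trpm1, the ON bipolar transduction channel, 10, 8, 2 and 15. Of 15 Müller glia genes, 2 were higher (13.3%) and 1 lower (6.67%), with a median of -0.08, which was 0.16 with a pseudocount of 5. Sox9, a factor of progenitors and glia, read 118, 88, 126 and 48, and Clu, clusterin, read 30, 14, 38 and 38. Rlbp1, the retinaldehyde carrier of Müller glia, went from 26 to 9 (change -0.93) while its H3K27me3 went from 11 to 55 and then 136 at PN15. Aqp4, the water channel of glial endfeet, was lower (13 and 3).

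Regulators of retinal progenitors had a positive median. Of 26, 12 were higher and 1 lower, the median centred log2 change was 0.94, and 19 had more H3K4me2 at PN7 than at PN1 while 18 had more H3K27me3. Of all symbols 13.7% were higher, and of marked symbols 44.9% had more H3K4me2 and 38.2% more H3K27me3 at PN7 than at PN1. The median H3K4me2 occupancy read 104, 74.5, 112.5 and 65 over the 4 stages, whereas H3K27me3 had medians of 27, 49, 64 and 85. Hmga2, a chromatin protein of young progenitors, read 105, 49, 135 and 38 for H3K4me2 and 40, 82, 158 and 104 for H3K27me3. Sox2, a factor of progenitor identity, read 104, 56, 124 and 36 against 26, 75, 112 and 182, and Hes1, a target of Notch, 100, 62, 152 and 85 against 13, 27, 44 and 73. Notch1 itself read 81, 63, 128 and 70 for H3K4me2, and its ligand Dll4 101, 80, 165 and 99. H3K27me3 went the other way at these 2, from 66 at PN1 to 42 at PN7 for Notch1 and from 233 to 89 for Dll4. In each of these 5 genes H3K4me2 was highest at PN7 and lower again at PN15.

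The 1 progenitor gene called lower was Lin28b, an RNA-binding protein that blocks the maturation of let-7 microRNAs in early progenitors. Its H3K4me2 read 67, 31, 3 and 16 and its H3K27me3 95, 192, 303 and 114, so it was lower in H3K4me2 (change -2.50) while its H3K27me3 value was larger at PN7 than at PN1. Its window had 1.61% repeated words and a GC content of 44.6%. Pax6 and Rax, homeodomain factors of the optic vesicle, were not called, with 97 and 114, and 75 and 41 at PN1 and PN7. The median GC content of the progenitor windows was 53.7%. With like level and GC content as the reference the median was 0.16, 0 genes were higher and 1 was lower, and after quantile normalization the median was -0.03.

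Genes of the cell cycle and of DNA replication had a median near that of all symbols. Of 36, 5 were higher (13.9%, against 13.7% of all symbols) and 1 lower (2.78%, against 26.6%). The median was -0.03, and with symbols of like level as the reference it was -0.46, with 2 higher and 8 lower. With like level and GC content 0 were higher and 5 lower (median -0.23), and after quantile normalization 0 and 6 (-0.38). The median was below 0 under all 10 alternatives. The higher ones were Ccnd1, Ccne1 and Ccne2, cyclins of S phase entry (Ccnd1 118, 73, 161 and 120), Cdk1 (69, 30, 49 and 39) and the helicase subunit Mcm5. Rrm1, a subunit of ribonucleotide reductase, was lower (65, 45, 15 and 40). Mki67 and Pcna, markers of proliferating cells, were not called, with 48 and 47, and 54 and 27. The 17 widely expressed genes gave 0 higher and 0 lower calls, and their changes ran from -0.65 for Sdha, a mitochondrial dehydrogenase subunit, to 0.98 for Gapdh, a glycolytic enzyme. Actb, the cytoskeletal actin, read 84, 60, 59 and 68. The median of this list was 0.23, and it was below 0 under 5 of the alternatives, with -0.27 for symbols of like level as the reference.

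**Figure D4:**
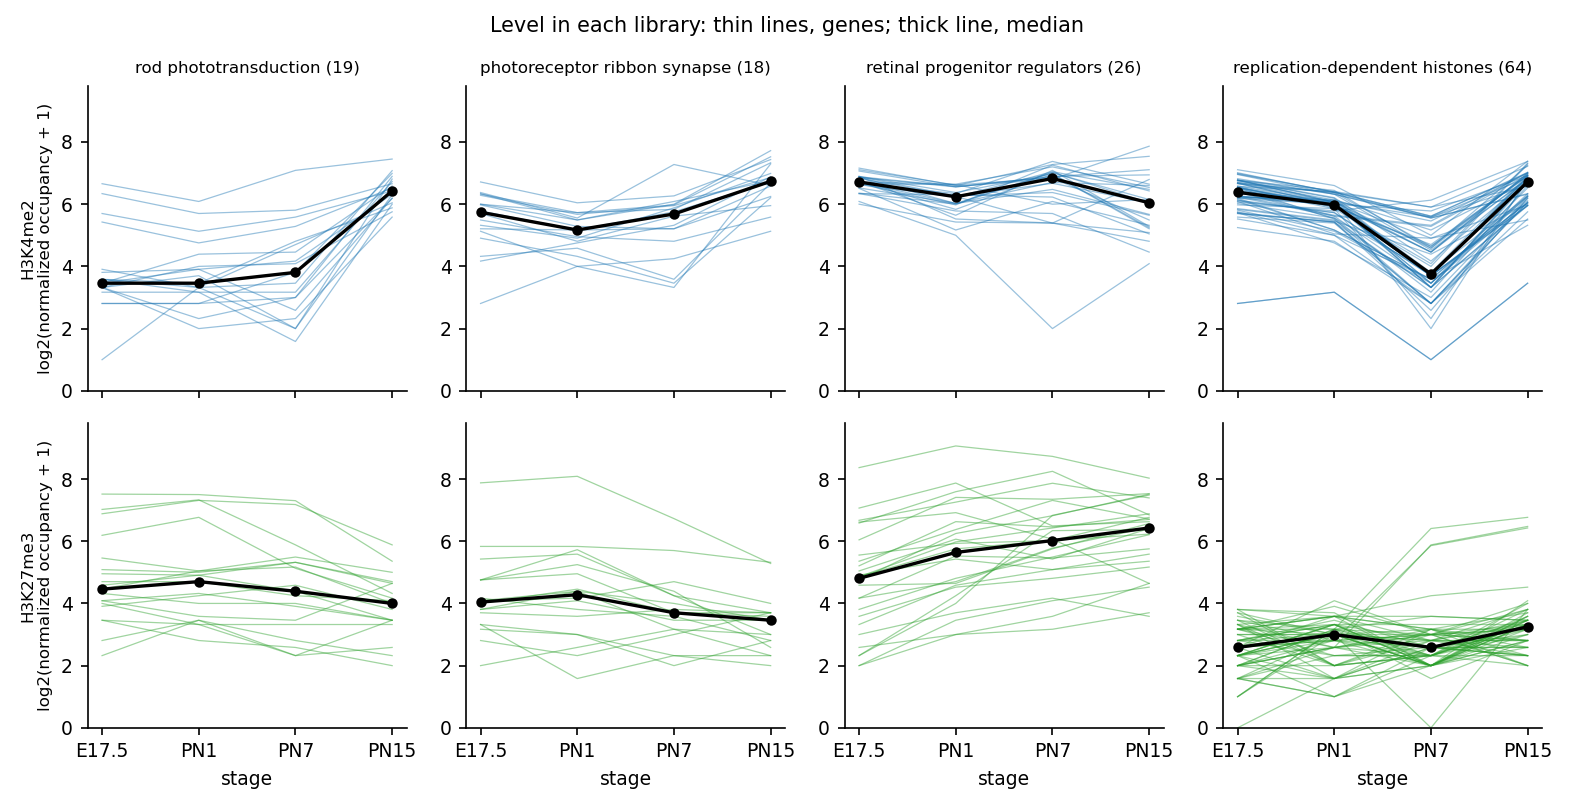
Level of each gene in the 4 libraries of H3K4me2 (top) and H3K27me3 (bottom) as log2(normalized occupancy + 1), for rod phototransduction, the ribbon synapse, progenitor regulators and replication-dependent histones. Thin lines are genes and the thick line is the median. The rod median for H3K4me2 stays between 10 and 13 up to PN7 and reaches 85 at PN15, whereas the histone median drops to 12.5 at PN7 alone.

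The study also listed genes whose expression rises or falls as the retina matures, from earlier expression profiles. Of 120 rising genes measured, 40 were higher and 2 lower, with a median of 0.73, and of 118 falling genes 22 were higher and 3 lower, with a median of 0.47. These shares were 33.3% and 18.6% higher, against 13.7% of all symbols. The falling median was -0.035 without centring, 0.025 with like level and -0.083 after quantile normalization. With like level and GC content as the reference the medians were 0.14 and -0.12, with 12 higher and 1 lower among the rising genes left and 3 higher and 9 lower among the falling genes left. At PN15, 114 of the 120 rising genes and 86 of the 118 falling genes had a larger value than at PN7, as did 16612 of all 20045 symbols (82.9%).

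Chemosensory receptor genes were mostly lower. Of 1047 olfactory receptor genes, 860 were lower (82.1%, against 26.6% of all symbols) and 9 higher (0.86%, against 13.7%). Their median occupancy went from 3 to 0, and 939 were at 0 at PN7 against 39 at PN1. Vomeronasal receptors gave 253 lower (84.9%) and 0 higher of 298. The changes at these genes were of about 3 units, and with a pseudocount of 5 only 16 olfactory receptors were lower. Their median change of -1.50 became 0.00 with symbols of like level as the reference. The median window of the olfactory receptors had a GC content of 36.6%.

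Genes with Polycomb marks were common among the gains. An H3K27me3 occupancy of 40 or more at PN1 was found at 1126 of the 2745 higher symbols (41.0%), at 15.7% of those called neither and at 5.10% of the lower ones. The median H3K27me3 of the higher class was 23, 26, 25 and 20 over the 4 stages, and the upper quartile was 78, 92, 78 and 57. From PN1 to PN7 the median was thus nearly level, while the upper quartile was lower. With the level of H3K27me3 taken as the mean log2(occupancy + 1) of E17.5 and PN15, the share of symbols called higher in H3K4me2 was 8.04% below a level of 3, 8.47% at 3 to 4, 15.5% at 4 to 5, 29.8% at 5 to 6, 35.8% at 6 to 7 and 33.3% above 7.

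The relation to H3K27me3 was also seen within classes of GC content. Among marked symbols with a GC content of 46 to 50%, 198 of 3084 with little H3K27me3 (level under 4) were higher (6.42%), against 50 of 150 with much (level of 6 or more, 33.3%). At 50 to 54% the shares were 20.9% (399 of 1905) and 54.2% (173 of 319), and at 54 to 58% they were 42.4% (261 of 615) and 65.8% (158 of 240). At 42 to 46% they were 2.66% (55 of 2066) and 23.8% (10 of 42). Symbols with much H3K27me3 had lower H3K4me2 at PN1 than the others in every class, with medians of 32.5 to 36 against 42 to 46, and the part of this starting level in the shares was not tested.

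**Figure D5:**
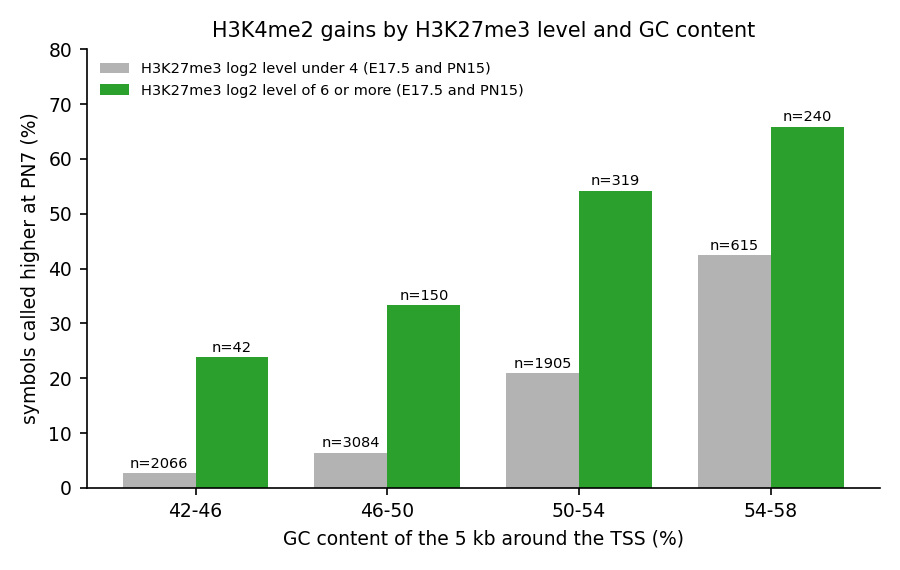
Share of marked symbols called higher in H3K4me2 at PN7 (y axis, %) by GC content of the window (x axis, %), for symbols with little (grey) and much (green) H3K27me3 at E17.5 and PN15. The number of symbols stands above each bar, and the green bar is the taller in all 4 classes, with 23.8% to 65.8% against 2.66% to 42.4%.

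From E17.5 to PN15, over which 5.17% of all symbols were called higher and 12.8% lower, the 2745 symbols that were higher at PN7 had 174 higher (6.34%) and 163 lower calls (5.94%), and their median change was 0.10. The 5333 lower symbols had 519 higher (9.73%) and 1189 lower calls (22.3%) over that interval, with a median of -0.13. The neither class had 343 higher (2.87%) and 1217 lower calls (10.2%), with a median of 0.04. The median change over the longer interval was thus small in the higher class. Its share of higher calls was still above that of the neither class. The genes of the higher class were also longer, with a median annotated length of 25769 bases against 21761 in the neither class and 8245 in the lower class.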

How the data were processed

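ChIP-Seq libraries of H3K4me2 and H3K27me3 were compared at the TSS of mouse genes, with 1 library for each mark and stage. According to the methods of the study, the authors mapped reads with Bowtie 0.12.4 to mm9 (both named in the submitters' processing notes too), left out reads with several positions and normalized the reads within 2.5 kb of each TSS to the mapped reads of the library. The deposited values are scores, namely these normalized occupancies rounded by the authors to whole numbers. As these are no longer read numbers, count models were not applied, and the depth is unknown. Of the 10 samples, 8 had a column in the table, and 0 columns of other samples were found. A letter b follows the mark in the name of the H3K27me3 column of PN7. The mark and stage of a library were taken from its title, and E17 in the titles was read as the E17.5 of the protocol. Of the 20045 symbols, 25 had been turned into dates by a spreadsheet and were kept as written.

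Changes were computed as log2(value + 1), centred on the median of all symbols, and called at 1 and -1. This fold scale understates changes of low values. Symbols and gene lists were chosen with earlier results of these data known. The genes named were the 15 symbols with the largest gain among those with at least 40 at PN7, the 15 with the largest loss among those with at least 40 at PN1, the 5 highest symbols of each library and members of the gene lists. The lists are those of the report and of the observations. Some genes covered by this rule are not reported here. No set test was run.

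GC content and repeated words of 32 bases, taken every 10 bases, were computed from mm9 for windows of 5 kb around the start of the GENCODE vM1 gene of the same symbol (19471 symbols, 97.1%). For some genes this start may differ from the TSS of the table. Shares of promoters with a motif were to be taken from RefSeq promoters (GRCm38.p6), but only 79.0% of symbols matched one, so they were taken from the mm9 sequence before the annotated start, and RefSeq gave only the sequences printed. The functions were tested on simulated data. Alternatives were pseudocounts of 5 and 10, no centring, centring on symbols of like level at E17.5 and PN15, quantile normalization, a filter at 20, the mean over entries and E17.5 in place of PN1. Leaving out repeated windows (30% or more repeated words, or no window) and centring on like level and GC content were added after the data had been seen. Python 3.11.15, numpy 2.4.6, pandas 2.3.3, scipy 1.17.1, numba 0.67.0, pysam 0.24.0, samtools 1.23.1 and matplotlib 3.10.9 were used.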

Additional observations from a re-analysis of the deposited data

How the results depend on the processing

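No paired analysis was possible because each stage and mark had 1 library, and for the same reason no replicate could be left out. The calls rest on values whose depth is unknown and that were rounded to whole numbers, so the error of a change cannot be given. Counts are given below where they changed by over 1.5 times, and list medians where they left the 95% binomial band of order statistics around the value of the report. That band is wide for short lists and has nearly no width for the olfactory receptors, whose values are tied, so a median that is not given may have shifted further than one that is. With a pseudocount of 5, 727 symbols were lower, and the median changed for olfactory receptors (-0.29). With a pseudocount of 10, 1033 symbols were higher and 292 symbols were lower, and the medians changed for rod phototransduction (0.35), widely expressed genes (0.052), olfactory receptors (-0.12), homeobox regulators (0.34), histones (-1.06), potassium channels (0.40) and rising genes (0.41). Without centring, 814 symbols were higher, and the medians changed for rod phototransduction (0.19), potassium channels (0.19), the ribbon synapse (0.25), amacrine genes (0.11), progenitor regulators (0.44), the cell cycle (-0.53), widely expressed genes (-0.27), olfactory receptors (-2.00), homeobox regulators (0.10), forkhead factors (0.28), histones (-1.81), rising genes (0.22) and falling genes (-0.035). With symbols of like level as the reference, 1996 symbols were lower, and the medians changed for rod phototransduction (0.28), the ribbon synapse (0.22), progenitor regulators (0.58), the cell cycle (-0.46), widely expressed genes (-0.27), olfactory receptors (0.00), forkhead factors (0.44), histones (-1.68), potassium channels (0.42), rising genes (0.27) and falling genes (0.025). After quantile normalization, 1465 symbols were higher and 1516 symbols were lower, and the medians changed for the ribbon synapse (0.21), amacrine genes (0.077), progenitor regulators (-0.029), the cell cycle (-0.38), widely expressed genes (-0.12), olfactory receptors (0.00), homeobox regulators (0.28), rising genes (0.22) and falling genes (-0.083). Among symbols with at least 20 in 1 of the 2 libraries, 950 symbols were higher and 1051 symbols were lower, and the medians changed for cone genes (1.39), the ribbon synapse (0.35), progenitor regulators (0.51), the cell cycle (-0.46), widely expressed genes (-0.20), homeobox regulators (0.24), histones (-1.70), rising genes (0.32) and falling genes (0.046). With the mean over the entries of a symbol, the median changed for olfactory receptors (-1.49). With E17.5 in place of PN1, 2940 symbols were lower, and the medians changed for olfactory receptors (-0.65) and homeobox regulators (0.26). Without repeated windows, the median changed for olfactory receptors (-1.58). With symbols of like level and GC content as the reference, 1355 symbols were higher and 1134 symbols were lower, and the medians changed for rod phototransduction (0.30), amacrine genes (-0.24), progenitor regulators (0.16), the cell cycle (-0.23), widely expressed genes (-0.14), olfactory receptors (0.00), homeobox regulators (0.15), forkhead factors (0.012), histones (-1.03), potassium channels (0.21), rising genes (0.14) and falling genes (-0.12). Leaving out the centring lowered every list median by the same amount, so that the outer segment stood at 0.43, horizontal genes at 0.46, ganglion cell genes at 0.17, photoreceptor regulators at 0.00 and Müller glia at -0.58. The olfactory receptors gave no value under the filter at 20. The cone median under this filter rested on 2 genes, of which Kcnv2 passed through PN7 alone. The settings on repeated windows and on GC content were chosen after the data had been seen. The medians of the histones, rod phototransduction, the outer segment, the ribbon synapse, horizontal genes, rising genes, the cell cycle, homeobox regulators, forkhead factors and potassium channels kept their sign under all 10 alternatives, and that of the progenitor regulators under all but quantile normalization. Among single genes, the sign of the change turned after quantile normalization for Tgif1 (-0.15), Onecut2 (-0.055), Prox1 (-0.13), Sox9 (-0.13), Gucy2f (0.24), Trpm1 (0.24) and Gja10 (0.15). With symbols of like level as the reference it turned for Opn1sw (0.14) and Gja10 (0.19), and with like level and GC content for Mef2d (-0.0145), Onecut2 (-0.047), Rom1 (-0.047), Nkx2-6 (0.15), Slc17a6 (0.26), Opn1mw (0.32) and Gja10 (0.51). The cause of these changes was not tested.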

Other observations

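Gene families that were not described above also took part in the gain, and their members named here were chosen after their values were seen. Of 79 potassium channel genes, 30 were higher and 11 lower from PN1 to PN7, with a median centred log2 change of 0.69 (all symbols 0, with 13.7% higher and 26.6% lower). Kcnc1, a fast delayed rectifier, read 27, 21, 59 and 62 over the 4 stages, and its H3K27me3 went from 402 at PN1 to 142 at PN7. Kcnc4 read 51, 27, 64 and 39, with H3K27me3 at 427 and 331. Kcnb2, another voltage-gated channel, was lower, at 2, 7, 0 and 3. The window of Kcnc1 had a GC content of 59.7%, and that of Kcnb2 40.2%.

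Of 44 forkhead transcription factor genes, 18 were higher and 8 lower (median 0.78). Foxq1 went from 27 to 96, Foxf1a from 18 to 65, Foxp4 from 36 to 108 and Foxo3, a factor of stress and metabolic signalling, from 73 to 157. Foxr1 was lower, at 9 and 0. Of 60 homeobox regulators outside the Hox clusters and the retinal lists, 14 were higher and 1 lower (median 0.61), with Six4 going from 46 to 131, Irx5 from 56 to 113 and Six2 from 29 to 62. Nkx2-6 was the lower one, at 11 and 3. With symbols of like level and GC content as the reference the medians of the 3 families were 0.21, 0.01 and 0.15.

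The other families examined are given by their higher and lower calls, to be read against the 13.7% and 26.6% of all symbols. Lower calls far outnumbered higher ones in several families, with 0 higher and 28 lower of 37 taste receptors, 0 and 49 of 55 defensins, 0 and 45 of 49 keratin-associated proteins, 2 and 61 of 98 cytochrome P450 genes and 10 and 66 of 136 cytokines and chemokines. So they did in the clustered protocadherins, adhesion proteins of neurons, with 3 higher and 32 lower of 59. Housekeeping families had few calls, with 2 higher and 7 lower of 81 cytosolic ribosomal proteins and 3 and 6 of 76 nuclear genes of oxidative phosphorylation. Hox genes had 1 higher and 5 lower of 39, zinc finger proteins 29 and 47 of 322, transmitter receptors 18 and 17 of 76 and collagens 7 and 6 of 41. Among marker lists of other cells, endothelial cells had 2 higher and 4 lower of 11, oligodendrocytes 3 and 3 of 9, astrocytes 1 and 2 of 7, microglia 0 and 1 of 11, erythroid cells 1 and 6 of 8, pigment epithelium 1 and 6 of 12 and lens 0 and 7 of 13.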
